A study of Homo sapiens with 4 samples.

Results

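The G1/S transition and DNA replication were followed through 30 genes, chosen by name, in MDA-LM2 shDicer cells depleted of TARBP2. They encode G1 cyclins and E2F factors (5 genes), the licensing machinery and helicase of replication origins (12), polymerases, clamp and clamp loader (6), enzymes of nucleotide supply (3), proteins of histone supply and chromatin assembly (3) and a uracil repair enzyme (1). No measured value served as a criterion, but earlier results of these data were known when the genes were chosen. All 30 had a probe that could be named and that passed the detection filter, among 11245 genes tested and 19141 with a named probe. GINS1 was detected on 3 of the 4 arrays and the other 29 on all 4.

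Knockdown cells received siTARBP2-1 or siTARBP2-2, independent siRNAs against TARBP2, with 1 array each. Control cells received siControl-1 or siControl-2, a control siRNA per the labels, while the design text speaks of mock transfection. All cells, the controls included, carried a hairpin against Dicer, were of MDA-LM2, a metastatic derivative of the breast cancer line MDA-MB-231, and gave their RNA 48 h after transfection with a lipid reagent. Whether the hairpin line is a single clone is not given in the labels. No label tells whether the 4 samples were separate cultures. The p-values therefore cover the spread among these arrays alone, and that spread may be technical.

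Cyclin D with its kinases, and then cyclin E with CDK2, inactivate the retinoblastoma protein family and so free E2F factors, which switch on genes for replication. In G1, CDC6 and CDT1 load the MCM helicase on origins, and CDC45 and the GINS complex turn it into an active helicase in S phase. Polymerases, the PCNA clamp with its loader, nucleotide enzymes and histone chaperones then copy and repackage the DNA, and many of their transcripts peak around S phase.

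E2F-type and CCAAT motifs mark many promoters of this kind, so the 250 bases before the most upstream listed start of each gene were searched in RefSeq promoters of GRCh38.p14, which held 26 of the 30 genes (CCND1, CCNE2, MCM4 and MCM5 were not matched). The E2F-type letters searched were TTTCCCGC, TTTGGCGC, TTTCGCGC and TTTGCCGC, and those of the CCAAT box were CCAAT, each on both strands. TTTGGCGC on one strand and TTTCGCGC on the other overlap where a palindrome joins them, and each counts as a match. The first 3 sequences are of genes whose transcripts changed with knockdown, and the other 3 are E2F1, MCM6 and PCNA, chosen because they hold matches and did not pass the test. Matches are in capitals, and each sequence runs 5′ to 3′ on the strand of its gene.
RRM2: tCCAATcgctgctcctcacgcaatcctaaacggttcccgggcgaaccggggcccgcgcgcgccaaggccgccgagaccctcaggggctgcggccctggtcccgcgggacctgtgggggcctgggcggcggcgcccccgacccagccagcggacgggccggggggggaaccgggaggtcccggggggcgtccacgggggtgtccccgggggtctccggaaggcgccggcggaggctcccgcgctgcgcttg
POLE2: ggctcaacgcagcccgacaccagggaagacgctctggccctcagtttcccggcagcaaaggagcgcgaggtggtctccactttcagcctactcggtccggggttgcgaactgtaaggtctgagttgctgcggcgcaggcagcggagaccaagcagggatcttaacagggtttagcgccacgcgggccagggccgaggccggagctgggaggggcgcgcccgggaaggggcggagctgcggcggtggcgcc
CDC45: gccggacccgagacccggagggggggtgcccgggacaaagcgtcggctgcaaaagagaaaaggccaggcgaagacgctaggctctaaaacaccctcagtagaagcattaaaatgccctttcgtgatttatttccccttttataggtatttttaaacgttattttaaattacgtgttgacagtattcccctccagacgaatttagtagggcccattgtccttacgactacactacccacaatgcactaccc
E2F1: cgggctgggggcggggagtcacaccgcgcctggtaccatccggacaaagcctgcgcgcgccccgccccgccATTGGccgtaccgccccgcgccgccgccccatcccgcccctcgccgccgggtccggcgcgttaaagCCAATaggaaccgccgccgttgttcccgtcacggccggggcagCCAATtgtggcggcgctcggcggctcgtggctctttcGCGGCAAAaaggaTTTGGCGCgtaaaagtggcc
MCM6: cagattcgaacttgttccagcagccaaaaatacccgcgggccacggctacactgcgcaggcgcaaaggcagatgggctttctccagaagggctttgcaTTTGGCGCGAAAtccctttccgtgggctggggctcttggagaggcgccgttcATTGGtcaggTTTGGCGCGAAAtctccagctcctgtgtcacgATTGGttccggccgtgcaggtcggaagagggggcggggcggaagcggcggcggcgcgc
PCNA: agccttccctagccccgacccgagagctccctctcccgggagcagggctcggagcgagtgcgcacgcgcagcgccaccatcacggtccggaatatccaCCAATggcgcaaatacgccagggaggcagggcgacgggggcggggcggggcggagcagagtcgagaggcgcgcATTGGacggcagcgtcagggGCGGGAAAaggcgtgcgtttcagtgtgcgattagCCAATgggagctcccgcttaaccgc
They lie at chr2:10122318-10122567 (plus strand), chr14:49688215-49688464 (minus), chr22:19479216-19479465 (plus), chr20:33686386-33686635 (minus), chr2:135876444-135876693 (minus) and chr20:5126623-5126872 (minus). The RRM2 window holds 1 CCAAT match and no E2F-type match, and those of POLE2 and CDC45 hold neither. That of E2F1 holds 2 E2F-type and 3 CCAAT matches, that of MCM6 4 and 2, and that of PCNA 1 and 3. An E2F-type match was found in 11 of the 26 windows (42.3%), against 4.48% of 9081 genes tested and 2.78% of 27305 genes with a promoter in the table. A CCAAT match was found in 13 of the 26 (50%), against 35.8% and 33%. Of the 3 changed genes with a window, 0 held an E2F-type match, against 11 of the 23 that did not pass. Over all genes tested, 33.9% of 407 with such a match passed, and 34.2% of 8674 without one (limma, adjusted p under 0.05). A count over 3 genes cannot tell whether a match goes with the call. A match describes these letters and is not shown to be a binding site.

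The targeted gene was measured first. TARBP2 read 6.11 after siTARBP2-1 and 5.79 after siTARBP2-2, while siControl-1 and siControl-2 read 9.27 and 9.25. These and all values below are log2 signals or differences of log2 signals. Its difference, knockdown minus control, was -3.31 (standard error 0.11, limma adjusted p = 2.22e-10), and DICER1 gave -0.09 (adjusted p = 0.441). Each array detected between 39.1% and 40.8% of its probes, and the number of arrays limits the precision. All 6 markers that are high in MDA-MB-231 (VIM, CD44, AXL, MSN, CAV1, SPARC) were detected. Of the 6 that are low there, ERBB2 and GATA3 were detected, ESR1, PGR and CDH1 were not, and EPCAM had no named probe. Of 14 markers of blood, endothelial and fibroblast cells, 5 were detected (CD14, ITGAM, PECAM1, PDGFRB, LUM), and LUM was higher in knockdown (0.44, adjusted p = 0.0272). CAV1 and SPARC were also higher (0.35 and 0.72), and CD44 and ERBB2 gave 0.13 and -0.27. The part of these markers in the results below was not tested.

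Most replication genes held close to their control level. Of the 30, 4 passed the test (13.3%), against 34.2% of all genes tested (limma, adjusted p under 0.05 over all genes). Cyclin D1 and CDC45 were higher in knockdown, as were 17.1% of all genes. RRM2, the regulated small subunit of ribonucleotide reductase, and POLE2, a subunit of DNA polymerase epsilon without catalytic activity, were lower, as were 17.1%. With each array scaled to a common median in place of quantile normalization, 66.2% of the calls over all genes were higher, against 49.9%, and POLE2 was no longer called. At an unadjusted p under 0.05 there were 8 of 30 (26.7%), against 43.9%. Both knockdown arrays lay on the same side of both controls for 19 of the 30 (11 above and 8 below), a share of 63.3% against 67% of all genes (32.5% above and 34.5% below). The median difference of the 30 was 0.047 and the median of its size 0.10, against -0.009 and 0.16 over all genes. With median scaling the median difference of the 30 was 0.0873, against 0.043 over all genes. It was 0.0215 to 0.0331 when any 1 array was left out. The 95% interval of each of the 30 stayed inside a 1.5-fold change in either direction, which was so for 82.2% of all genes tested. The 30 were also brighter (median control level 10.46, against 8.84 over all genes) and had smaller standard errors (median 0.062, against 0.0755). The part of this in the shares was not tested. In bulk RNA, fewer cells in a phase of the cycle and less RNA per cell cannot be told apart.

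**Figure D1:**
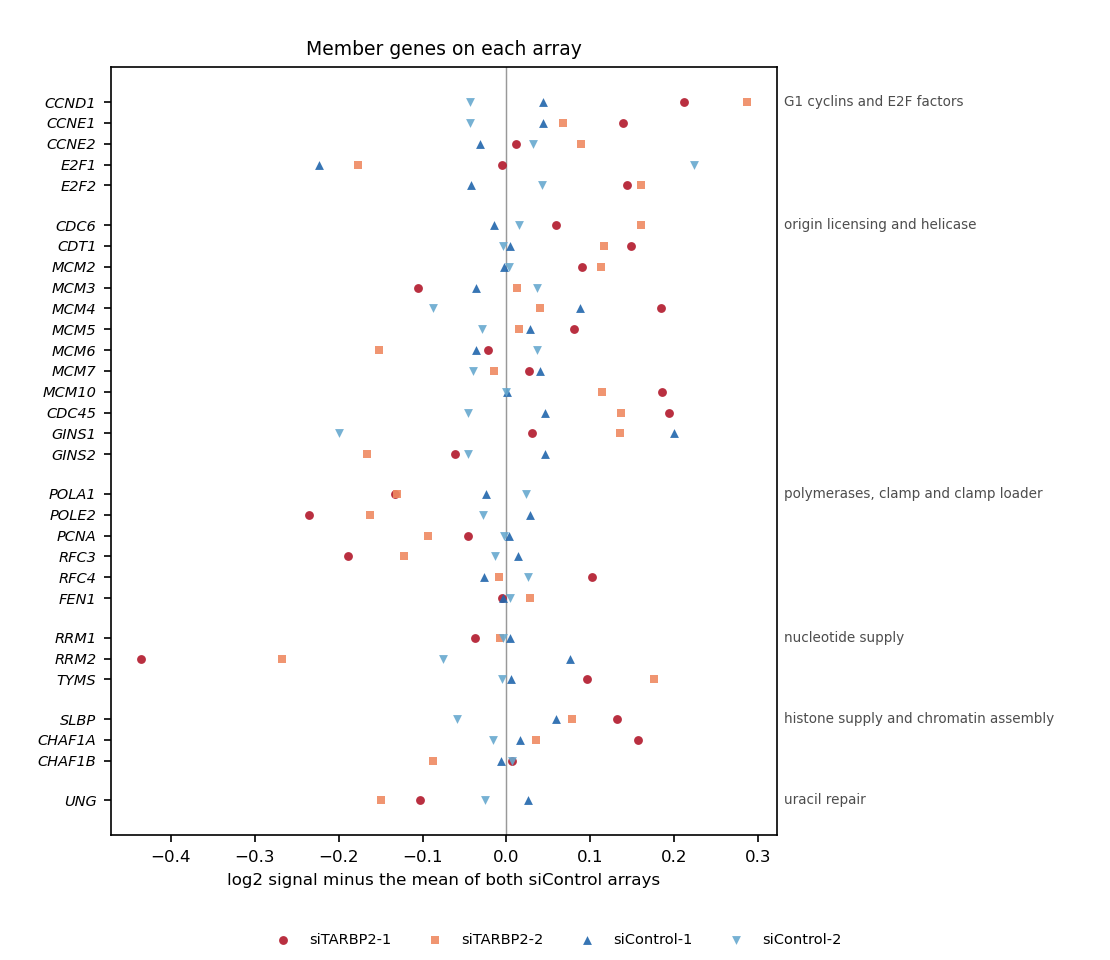
Log2 signal of each of the 30 genes on each of the 4 arrays, minus the mean of the 2 control arrays (x axis), with genes grouped by role (y axis). Both knockdown points of CCND1 lie right of both control points and both of RRM2 lie left, while most other genes stay within 0.2 of the control mean.

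**Figure D2:**
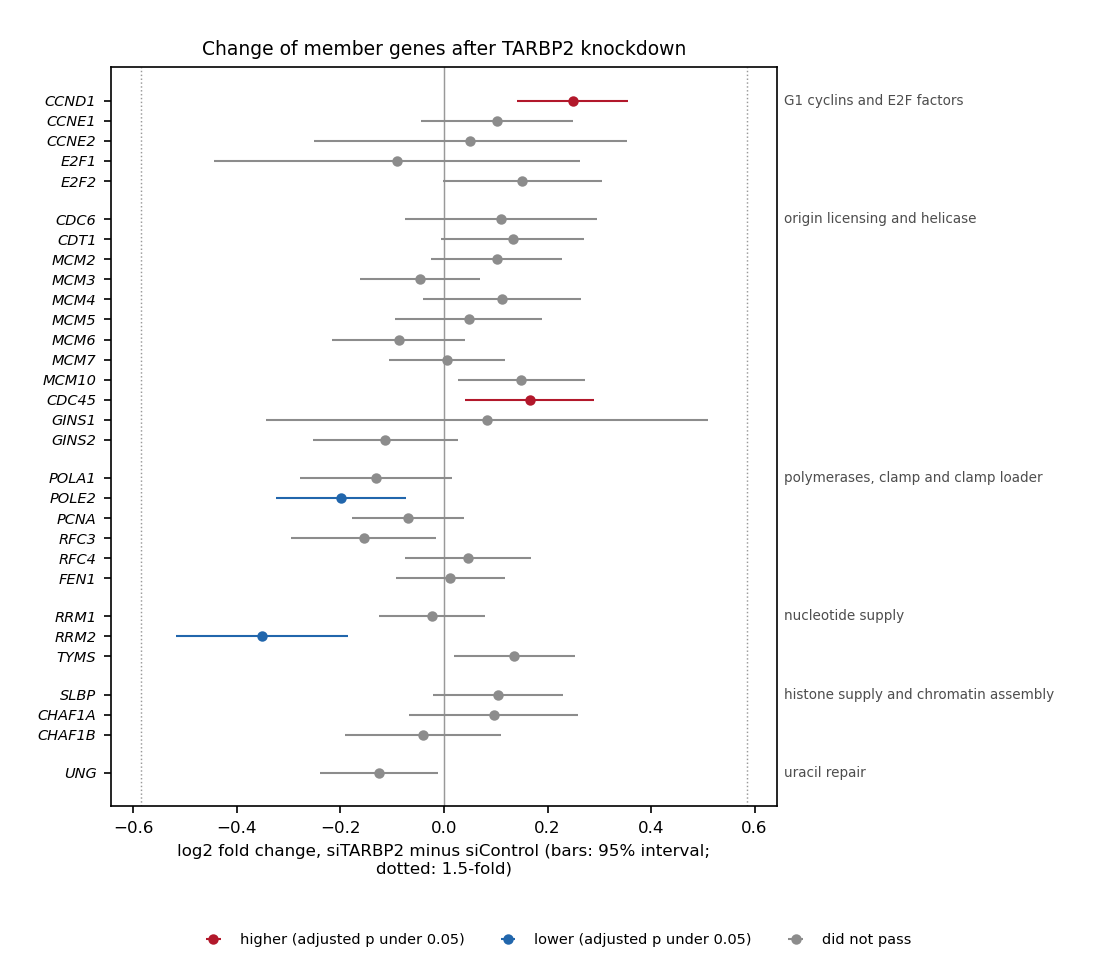
Log2 fold change of each of the 30 genes, knockdown minus control (x axis), with its 95% interval as a bar and dotted lines at a 1.5-fold change. The 4 genes past the test are coloured, CCND1 and CDC45 to the right and POLE2 and RRM2 to the left.

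Among the G1 cyclins and E2F factors, cyclin D1 was the gene that changed. CCND1 (NM_053056), whose product activates CDK4 and CDK6 early in G1, read 13.55 after siTARBP2-1 and 13.63 after siTARBP2-2, while siControl-1 and siControl-2 read 13.39 and 13.30. Both knockdown arrays stood above both controls. The deposited intensities behind these values were 12136 and 12749 in knockdown, against 10916 and 10071 in controls. The means were 13.59 ± 0.05 (SD, n = 2) in knockdown and 13.34 ± 0.06 (SD, n = 2) in controls, a difference of 0.25 (95% interval 0.14 to 0.36) or 1.19-fold (limma adjusted p = 0.00180). In the authors' deposited table CCND1 is the single accession, of 36 for these genes, that is marked as up-regulated (2.78%, against 3.12% of all 39219 accessions joined). Without a variance trend the call was lost (adjusted p = 0.0526).

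Cyclin E, the partner of CDK2 at the entry into S phase, did not pass the test. CCNE1 read 9.37 and 9.30 in knockdown, against 9.28 and 9.19 in controls, a difference of 0.10 (95% interval -0.044 to 0.25, limma adjusted p = 0.269), with both knockdown arrays higher. CCNE2 overlapped between the groups, at 5.97 and 6.05 in knockdown, against 5.93 and 5.99 in controls (0.05). The activator E2F2 stood above the controls on both knockdown arrays, at 8.81 and 8.83 in knockdown, against 8.63 and 8.71 in controls, and missed the threshold (0.15, adjusted p = 0.118). For E2F1, the activator best known at this step, the control arrays themselves spread the widest of all 30 genes. It read 6.08 and 5.91 in knockdown, against 5.87 and 6.31 in controls, so the groups overlapped, and its interval ran from -0.44 to 0.26.

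In the licensing and helicase group 1 of 12 genes passed (8.33%, against 34.2% of all genes tested), and this gene was CDC45. Its protein joins the MCM ring and GINS in the active helicase. CDC45 (NM_003504) read 11.30 after siTARBP2-1 and 11.24 after siTARBP2-2, while siControl-1 and siControl-2 read 11.15 and 11.06, so both knockdown arrays were above both controls by a small margin. Its deposited intensities were 2543 and 2540 in knockdown, against 2312 and 2110 in controls. The means were 11.27 ± 0.04 (SD, n = 2) in knockdown and 11.10 ± 0.07 (SD, n = 2) in controls, a difference of 0.17 (95% interval 0.041 to 0.29, limma adjusted p = 0.0404). This call is the least firm of the 4. It was lost when either siRNA array was left out (adjusted p = 0.152 without siTARBP2-1 and 0.0515 without siTARBP2-2) and when siControl-2 was left out (0.268), with differences of 0.14, 0.19 and 0.12. It was also lost without the detection filter (0.0661) and without a variance trend (0.135).

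Of the loading factors, CDC6 read 7.69 and 7.79 in knockdown, against 7.61 and 7.64 in controls, and its partner CDT1 read 9.50 and 9.46 in knockdown, against 9.35 and 9.34 in controls. Both lay above the controls on both knockdown arrays, with differences of 0.11 and 0.13, and neither passed (limma adjusted p = 0.355 and 0.129).

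The 6 subunits of the MCM ring, MCM2 to MCM7, gave differences between -0.087 (MCM6) and 0.11 (MCM4), 4 above 0 and 2 below. Of the 6, 0 passed, also at an unadjusted p under 0.05, against 34.2% and 43.9% of all genes tested. A count over 6 genes says little about the group. The 95% intervals of the 6 ran at the widest from -0.22 to 0.26. MCM2 read 10.35 and 10.37 in knockdown, against 10.25 and 10.26 in controls, the one subunit whose groups did not overlap (0.10, limma adjusted p = 0.201). MCM3 read 12.83 and 12.95 in knockdown, against 12.90 and 12.97 in controls, and MCM6 read 11.58 and 11.45 in knockdown, against 11.56 and 11.64 in controls. In each of them 1 knockdown array lay below both controls and the other lay between them. MCM4 read 10.85 and 10.70 in knockdown, against 10.75 and 10.57 in controls, and MCM5 read 9.54 and 9.47 in knockdown, against 9.49 and 9.43 in controls. MCM7 read 12.44 and 12.40 in knockdown, against 12.45 and 12.37 in controls. These 3 subunits overlapped between the groups, with differences of 0.11, 0.047 and 0.0058.

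MCM10, which helps to activate the ring, read 10.96 and 10.89 in knockdown, against 10.77 and 10.77 in controls, above both controls, with a difference of 0.15 that just missed the threshold (limma adjusted p = 0.0587). The GINS subunits that are in the list did not pass. GINS2 read 10.18 and 10.07 in knockdown, against 10.28 and 10.19 in controls, below both controls (-0.11, adjusted p = 0.197). GINS1 was near background and read 5.24 and 5.34 in knockdown, against 5.41 and 5.01 in controls, so the controls alone held both the highest and the lowest value (0.083, 95% interval -0.34 to 0.51).

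Of the polymerases, clamp and clamp loader, POLE2 alone passed, 1 of 6 genes (16.7%, against 34.2% of all genes tested). Both knockdown arrays lay below both controls for 4 of the 6, against 34.5% of all genes tested. With 6 genes such counts say little about the group. POLE2 (NM_002692) read 10.66 after siTARBP2-1 and 10.73 after siTARBP2-2, while siControl-1 and siControl-2 read 10.92 and 10.86. Its deposited intensities were 1652 and 1801 in knockdown, against 1978 and 1855 in controls, lower on both knockdown arrays. The means were 10.69 ± 0.05 (SD, n = 2) in knockdown and 10.89 ± 0.04 (SD, n = 2) in controls, a difference of -0.20 (95% interval -0.33 to -0.073, limma adjusted p = 0.0179), or 0.871 of the control level. The call was lost without siTARBP2-1 (adjusted p = 0.0879) and without siControl-1 (0.122), and with each array scaled to a common median in place of quantile normalization (0.154). It was lost without a variance trend as well (0.0805).

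POLA1, the catalytic subunit of polymerase alpha that extends primers, read 8.87 and 8.87 in knockdown, against 8.98 and 9.03 in controls, with the knockdown arrays nearly equal and lower (-0.13, limma adjusted p = 0.154). RFC3, a clamp loader subunit, read 9.35 and 9.41 in knockdown, against 9.55 and 9.52 in controls (-0.16, adjusted p = 0.0814). PCNA, the sliding clamp, read 12.14 and 12.09 in knockdown, against 12.19 and 12.18 in controls, lower by a margin that did not pass (-0.07, adjusted p = 0.313). RFC4, another loader subunit, and FEN1, the flap nuclease of Okazaki fragments, overlapped between the groups on their brightest probes. RFC4 read 11.71 and 11.60 in knockdown, against 11.59 and 11.64 in controls (0.047), and FEN1 read 12.42 and 12.45 in knockdown, against 12.42 and 12.43 in controls (0.012).

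The nucleotide enzymes held the largest difference of the 30. RRM2 (NM_001034), the subunit that limits ribonucleotide reductase and so the supply of deoxynucleotides, read 9.12 after siTARBP2-1 and 9.29 after siTARBP2-2, while siControl-1 and siControl-2 read 9.63 and 9.48. The deposited intensities were 604 and 692 in knockdown, against 825 and 734 in controls. Both knockdown arrays were below both controls, and the distance between the group means exceeded the spread within either group. The means were 9.20 ± 0.12 (SD, n = 2) in knockdown and 9.55 ± 0.11 (SD, n = 2) in controls, a difference of -0.35 (95% interval -0.52 to -0.19, limma adjusted p = 0.00329), and the level fell by 21.6%. RRM2 passed when any 1 array was left out, with differences between -0.44 and -0.27 (adjusted p between 0.00358 and 0.0404).

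RRM1, the large subunit of the same enzyme, read 12.83 and 12.86 in knockdown, against 12.87 and 12.86 in controls, a difference of -0.023 whose interval ran from -0.12 to 0.079. The difference between both subunits' changes was not tested. TYMS, thymidylate synthase, stood above the controls, at 11.61 and 11.68 in knockdown, against 11.52 and 11.50 in controls, and did not pass in the comparison of groups (0.14, limma adjusted p = 0.0704).

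Histone supply, chromatin assembly and uracil repair gave 0 changed genes of 4, with 1 at an unadjusted p under 0.05 (UNG). Over all genes tested the shares were 34.2% and 43.9%, and a count over 4 genes says little about the group. SLBP, which binds the stem loop of replication-dependent histone messages, read 11.51 and 11.46 in knockdown, against 11.44 and 11.32 in controls (0.10, limma adjusted p = 0.185). CHAF1A and CHAF1B, subunits of the chromatin assembly factor CAF-1, lay above both controls and across them. CHAF1A read 8.61 and 8.48 in knockdown, against 8.46 and 8.43 in controls (0.096, adjusted p = 0.359), and CHAF1B read 8.995 and 8.90 in knockdown, against 8.98 and 8.995 in controls (-0.04, adjusted p = 0.698). UNG, which removes uracil from DNA, read 11.71 and 11.67 in knockdown, against 11.84 and 11.79 in controls, below both controls (-0.13, adjusted p = 0.0830).

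Each siRNA was also set against the same 2 controls, so both comparisons share those arrays. A lone array was assumed to vary like the controls. With siTARBP2-1, 3 of the 30 passed, CCND1 higher (0.21, limma adjusted p = 0.0164) and RRM2 and POLE2 lower (-0.44 and -0.24, adjusted p = 0.00391 and 0.0229), against 24.9% of all genes (12.6% higher and 12.3% lower). With siTARBP2-2, 3 passed, CCND1 and TYMS higher (0.29 and 0.18, limma adjusted p = 0.00320 and 0.0480) and RRM2 lower (-0.27, adjusted p = 0.0389), against 27.2% (13.6% in each direction). POLE2 gave -0.16 with siTARBP2-2 (adjusted p = 0.0901), and TYMS gave 0.096 with siTARBP2-1 (adjusted p = 0.273). CDC45 gave 0.19 and 0.14 and passed with neither (adjusted p = 0.0521 and 0.152). With median scaling RRM2 alone passed with siTARBP2-1 and CCND1 alone with siTARBP2-2. Without the detection filter RRM2 and POLE2 passed with siTARBP2-1 and CCND1 with siTARBP2-2, and without a variance trend 0 passed with either.

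Set against each other, siTARBP2-2 minus siTARBP2-1 gave 0 of the 30 genes past the threshold and 0 at an unadjusted p under 0.05 (limma), against 0.0178% and 5.79% of all genes. The differences ran from -0.17 for E2F1 to 0.17 for RRM2. The interval for RRM2 ran from -0.051 to 0.39, so these arrays leave room for a difference of that size. The comparison is of 1 array with 1 array, with the spread taken from the 2 controls and the shared variance model, so 0 calls say little about whether the siRNAs act alike.

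A second look came from the 11 genes with more than 1 detected probe, in a fit over all 19295 detected probes, chosen after the data were seen. CCND1, CDC45, POLE2 and RRM2 each had 1 detected probe, so no second probe could check their calls. Of the 44 detected probes of the 30 genes, 2 were higher and 2 lower, against 28% of all probes in either direction. For 4 genes (MCM3, MCM7, RFC3 and UNG) the probes differed in sign, and for FEN1 they differed in the call. The second FEN1 probe read 10.59 and 10.68 in knockdown, against 10.39 and 10.39 in controls, both knockdown arrays higher, with a difference of 0.24 (standard error 0.061, limma adjusted p = 0.00879), while the brightest gave 0.012. The probes of FEN1 share 1 accession, and which of them follows the transcript more closely was not tested.

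A dim second probe of PCNA read 5.65 and 5.44 in knockdown, against 6.10 and 5.89 in controls (-0.45, limma adjusted p = 0.0507), and did not pass. The second probe of MCM7 read 6.60 and 6.83 in knockdown, against 6.85 and 6.80 in controls (-0.11, adjusted p = 0.522), so the groups overlapped. The third and dimmest MCM7 probe read 4.96 and 5.05 in knockdown, against 5.34 and 5.64 in controls. It was above the detection limit on both control arrays and on neither knockdown array. It thus met the filter through the controls alone, and its difference is not read as a result. The other probe of MCM4, for NM_182746, gave 0.22 (adjusted p = 0.0560), beside 0.11 on the brightest. In this fit CDC45 had an adjusted p of 0.0513 and so did not pass, while CCND1, RRM2 and POLE2 did.

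**Figure D3:**
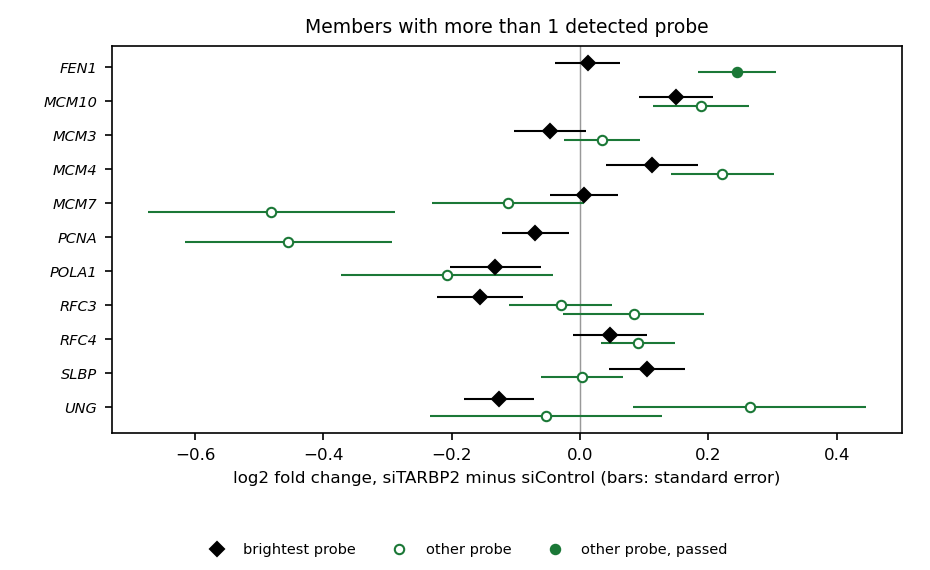
Log2 fold change, knockdown minus control (x axis), of every detected probe of the 11 genes with more than 1, with the standard error as a bar. Diamonds are the brightest probes, open circles other probes and the filled circle the second FEN1 probe at 0.24, the one other probe that passed. The dimmest MCM7 probe was below the detection limit on both knockdown arrays, so its plotted difference is not read as a result.

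The authors' deposited fold changes, on a scale whose base is not stated, have the same sign as the values here for each of the 4 changed genes. Probes were named by matching these same fold changes to normalized intensities of the same arrays. The shared sign was thus largely fixed in advance and is no independent check. The deposited table gives 0.29 for CCND1, 0.18 for CDC45, -0.19 for POLE2 and -0.30 for RRM2. For FEN1 it gives 0.12 for the accession that both probes share.

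Beyond the 30, other genes of the same processes were counted in 7 lists. The lists hold 115 genes, chosen by function and not by how they moved, though with earlier results of these data known. In all 108 of them were tested. Of these 30 passed, 17 higher and 13 lower (27.8%, against 34.2% of all genes). At an unadjusted p under 0.05 there were 45 (41.7%, against 43.9% of all genes). Of all genes 17.1% were higher and 17.1% lower, and with median scaling 2232 genes were higher and 1140 lower, so the direction counts of the lists are also given with that scaling where they move. The 7 that were not tested had no named probe past the detection filter (MCM9, DBF4B, ATAD5, DTYMK, SAMHD1, CDKN2A and MYBL2).

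The RB and E2F list had 1 gene higher and 5 lower of 13 (7.69% and 38.5%, against 17.1% of all genes each way), among them the largest difference of all 7 lists. With median scaling the counts were 1 higher and 2 lower (RBL1 and TFDP2), and without a variance trend 0 and 3. RBL1, the pocket protein p107 that binds repressive E2F factors, read 7.21 after siTARBP2-1 and 7.18 after siTARBP2-2, while siControl-1 and siControl-2 read 8.40 and 8.38. Its difference was -1.20 (standard error 0.082, limma adjusted p = 2.47e-07), or 0.436 of the control level, from a single named probe. TFDP2, a dimer partner of E2F factors, was lower (-0.52, adjusted p = 0.000745), and its dimmer probe gave -0.25 without passing (0.146). E2F7, a repressor without a dimer partner of that kind, was higher (0.20, adjusted p = 0.0261). The activator E2F3, the repressor E2F6 and LIN9 of the MuvB complex, named after their values were seen, made up the other lower genes at -0.20, -0.25 and -0.27.

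Of the G1 cyclins, kinases and inhibitors, 5 were higher and 2 lower of 16 (43.8% called, against 34.2% of all genes). With median scaling 5 were higher and 0 lower, and without a variance trend 3 and 1. CDC25A, the phosphatase that activates CDK2, was higher (0.34, limma adjusted p = 0.000425), and so was the CDK4 and CDK6 inhibitor CDKN2D (0.36). CDK2 itself and cyclin D2 (CCND2) were lower (-0.21 and -0.26), the second opposite in sign to cyclin D1. The higher genes thus included an activator and an inhibitor of the transition. CCND3, CCNA2 and the CDK inhibitor CDKN1A, named after their values were seen, made up the rest of the higher genes.

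In origin licensing and firing, 4 were higher and 0 lower of 18 (22.2%, against 34.2% of all genes called and 17.1% higher). Without a variance trend 1 was higher. GINS4, a partner of GINS1 and GINS2 in the GINS complex, read 7.95 and 8.16 in knockdown, against 7.75 and 7.29 in controls, with the controls far apart and both knockdown arrays above them (0.54, limma adjusted p = 0.00517). GINS3, the remaining subunit, read 9.65 and 9.65 in knockdown, against 9.40 and 9.38 in controls (0.26, adjusted p = 0.00631). Both of these subunits were higher, while GINS1 and GINS2 did not pass. The origin recognition subunit ORC3 and the fork protein DONSON, named after their values were seen, were the other higher genes (0.20 and 0.22).

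Polymerases and fork proteins had 0 higher and 3 lower of 24 (12.5%, against 34.2% of all genes called and 17.1% lower). With median scaling the counts turned to 4 higher and 1 lower, so the list's balance of directions rests on the scaling, and without a variance trend 1 was lower. DNA2 was the lower gene in both. DNA2, a nuclease and helicase of Okazaki fragment processing, read 7.82 and 7.72 in knockdown, against 8.31 and 8.31 in controls (-0.54, limma adjusted p = 0.000203), and its other probe gave -0.25 (0.045 in the fit over all probes). PRIM1, the catalytic subunit of primase that works with POLA1, was lower as well (-0.25, adjusted p = 0.00758), and so was TIMELESS of the fork protection complex, named after its value was seen (-0.16, adjusted p = 0.0467).

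In the nucleotide list 2 were higher and 1 lower of 13 (23.1%, against 34.2% of all genes), and with median scaling 3 and 1. Thymidine kinase TK1 and CTP synthase CTPS1 were higher (0.27 and 0.26), and deoxycytidine kinase DCK was lower (-0.28, limma adjusted p = 0.00440). These salvage and synthesis enzymes stand beside RRM2 (lower) and TYMS (not past the test).

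Histone chaperones and maintenance factors had 2 higher and 1 lower of 10 (30% called, against 34.2% of all genes). HELLS, a chromatin remodeller needed for DNA methylation, read 9.12 and 9.24 in knockdown, against 9.92 and 9.90 in controls, the largest difference of this list (-0.73, limma adjusted p = 3.2e-06), with -0.58 on its other probe. NASP, a chaperone of H3 and H4, and RBBP4, a subunit that CAF-1 shares with other complexes, were higher (0.39 and 0.28), next to CHAF1A and CHAF1B, which did not pass. In replication-coupled repair 3 were higher and 1 lower of 14 (28.6% called, against 34.2% of all genes). Among them were EXO1, an exonuclease (0.27), and, lower, SMUG1, which like UNG removes uracil (-0.28, limma adjusted p = 0.00544).

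**Figure D4:**
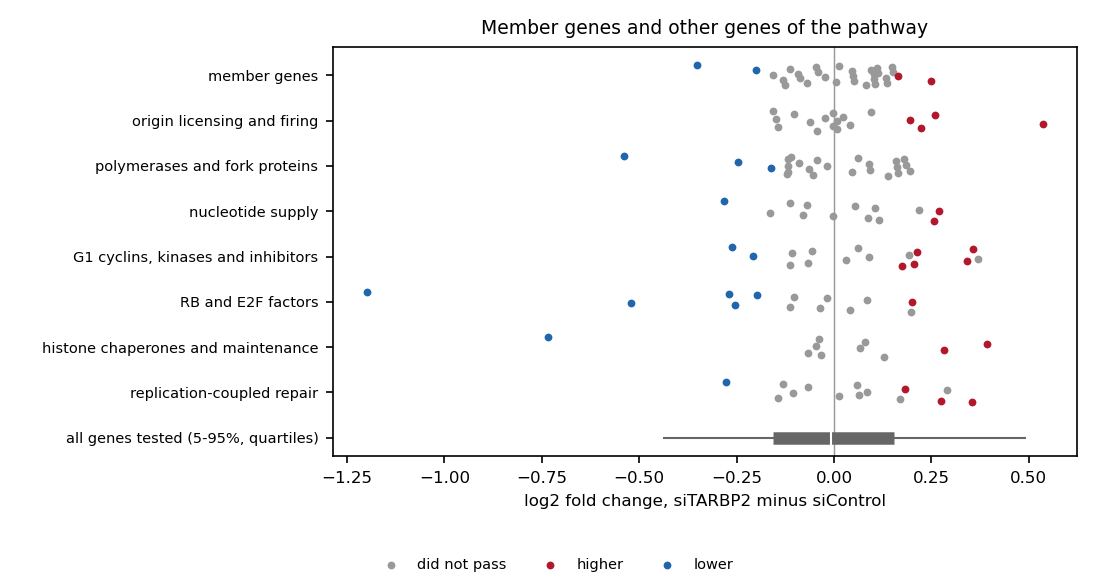
Log2 fold change, knockdown minus control (x axis), of the 30 genes (top line) and of the other genes of the pathway by list, with genes past the test in colour. The bar at the bottom gives the quartiles and the 5th to 95th percentiles of all genes tested, and the points farthest left are RBL1 at -1.20 and HELLS at -0.73.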

How the data were processed

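Total RNA of 4 samples was measured on Illumina BeadChips. The authors deposited probe intensities before normalization, on a linear scale, and a detection p-value per probe and array, per the file headers. A second deposited table holds normalized intensities, by a method not given in the sources used here. Log fold changes per accession form the last deposited table, treated here as a score since the authors state no base. The submitters' processing notes name lumi, version not given in the sources used here.

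No probe annotation was used. Probes were joined to accessions because the deposited fold changes equal, within 1e-09, a difference of group means of transformed normalized intensities, which joined 39219 of 39747 accessions. The join worked for 33131 probes with the groups of the normalized table turned round, for 16 as labelled and for 10 with values shifted by 1e-06. That table thus carries the groups crosswise to the headings of the table before normalization (each column correlated best with an array of the other group, r at least 0.99974, next at most 0.9971). The headings of the table before normalization were kept, in which TARBP2 is low in knockdown. Symbols came from RefSeq accessions without versions and named 27521 of 47323 probes.

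Intensities were corrected and quantile-normalized with neqc (offset 16) of limma 3.58.1 in R 4.3.3 and put on a log2 scale. The filter kept 19295 probes with detection p below 0.01 on 2 or more arrays, the brightest stood for each of 11245 genes, and lmFit and eBayes with a trend gave two-sided tests with Benjamini-Hochberg adjustment over all genes. A fit with 3 groups compared each siRNA with both controls and with the other siRNA. The exact permutation test of 2 against 2 arrays cannot go below p = 0.333, so calls rest on the variance shared across genes. The fits were tested on simulated data. The 30 genes and all lists were chosen with earlier results of these data known. Named beside them are TARBP2 and, from each list, up to 2 higher and 2 lower genes with the smallest p, of which 1 is not reported here. Alternatives changed the normalization, background, offset, detection filter, probe rule, variance model, pairing, table and arrays.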

Additional observations from a re-analysis of the deposited data

Results flagged for a closer look

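The second probe of FEN1, which the main comparison of genes did not use, gave a difference of 0.24 (standard error 0.061). It read 10.59 and 10.68 in knockdown, against 10.39 and 10.39 in controls (limma adjusted p = 0.00879 over all detected probes). The brightest probe gave 0.012, and the mean of probes gave 0.13 without passing (limma adjusted p = 0.065 over all genes). The second probe is listed because it passed in data outside the main measurement and was higher in 2 of 2 knockdown arrays than in both controls. Of all detected probes 28% passed in either direction. Of all genes tested 32.5% had both knockdown arrays above both controls, so neither property is rare.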

How the results depend on the processing

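Of 449 values of single genes under an alternative, 425 kept their direction and their side of the threshold, 10 no longer passed, 3 newly passed and 11 changed sign. In the comparison of groups RRM2 passed under every alternative run. Without a variance trend 1 of the 30 genes passed (0 higher and 1 lower), with 0 for each siRNA alone, and 18 of the other pathway genes passed against 30. CCND1 was lost there (limma adjusted p = 0.0526). Of all genes 24.4% passed in that fit, and 15.5% of 19141 did without the detection filter, against 34.2% in the main fit. Without the detection filter 1 gene was higher (CDC45 was lost) and 1 passed with siTARBP2-2. With median scaling 1 gene was lower (POLE2 was lost) and 1 passed with each siRNA, and of all genes 2232 were higher and 1140 lower, so 66.2% of calls were higher against 49.9%, while the median of all genes was 0.043 against -0.0090. Cyclic loess gave 5 genes with siTARBP2-1, and the mean of probes gave 5 with siTARBP2-2 and 6 in the comparison of groups, with MCM10 (0.17) and PCNA (-0.26) added. The PCNA value joins its brightest probe (-0.07) with a dim second probe (-0.45), and neither passed alone. Sign changes among genes that did not pass were MCM7 at -0.20 (with its probe undetected in knockdown included) and UNG at 0.028 with the mean of probes and CHAF1B at 0.043 with median scaling. Leaving out 1 array left 3 genes (1 to 2 higher and 1 to 2 lower), 20 to 25 other pathway genes, and ranges across 0 for E2F1 (-0.31 to 0.13), MCM3 (-0.11 to 0.012), MCM7 (-0.034 to 0.046), GINS1 (-0.12 to 0.28), RFC4 (-0.0085 to 0.10), FEN1 (-0.0048 to 0.029) and CHAF1B (-0.087 to 0.0068). TYMS passed without siTARBP2-1 (0.18, adjusted p = 0.0477). The replicate numbers pair no samples (correlation of deviations 0.0056), and the replicate block gave 4 of the 30 genes, 2 higher and 2 lower, with 1908 of all genes higher and 1933 lower. With 2 arrays a group, GINS1, E2F1 and CCNE2 near background carried the widest intervals. The causes of these shifts were not tested.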

Other observations

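Genes with an E2F-type match in the 250 bases before their start were described as a class beyond replication. Of 407 such genes tested, 45 were higher and 93 lower in knockdown (11.1% and 22.9%), against 1495 higher and 1469 lower of 8674 genes without a match (17.2% and 16.9%, limma, adjusted p under 0.05). The median difference was -0.039 in genes with a match and -0.0066 in genes without. None of the 11 replication genes with a match passed in either direction. With median scaling the class had 50 higher and 47 lower genes (12.3% and 11.5%), against 1732 and 861 without a match (20% and 9.93%), so its direction relative to 0 rests on the scaling. These are counts with no test, the letters were chosen with the data in view, and the genes share arrays.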
